A study of Mus musculus with 9 samples.

Results

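RNA of cells sorted as long-term hematopoietic stem cells (LT-HSCs) was compared between mice given 5-FU and then FMT and mice left untreated. The comparison took every gene in 6 of the 9 libraries of the series, 3 labelled 5-FU+FMT and 3 labelled Control. All mice were C57BL/6 of wild-type genotype. Mice of the 5-FU+FMT group received 5-FU (5-fluorouracil) at 250 mg/kg, then intravenous FMT, an agent whose abbreviation the labels do not spell out, at 5 mg/kg on days 1, 4 and 7, and their cells were taken on day 8. Control mice received neither agent, so the comparison holds the effect of 5-FU and that of FMT together. The other 3 libraries, labelled 5-FU+Saline, came from mice given the same 5-FU and then saline, and are set beside the comparison where they help to place a value. The gate was lineage-negative, Sca1-positive, c-Kit-positive, CD150-positive and, as the label writes it, C48-, read here as CD48-negative. Whether a library held cells of 1 mouse or of several is not stated, nor is the sex or age of the mice, so the p-values measure the spread between these libraries, which may be technical.

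LT-HSCs are the rare marrow cells that renew themselves and give rise to every blood lineage, and most of them rest outside the cell cycle. 5-FU blocks thymidylate synthase and enters RNA and DNA, and so kills cells that are dividing. After a dose of 5-FU the marrow loses its dividing progenitors, and resting stem cells are drawn into division before the marrow refills. CD150 marks stem cells and CD48 marks their progeny in undisturbed mouse marrow, and the levels of some gate proteins, among them c-Kit, are known to shift after 5-FU.

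Counts per library ran from 11098031 to 19095358, and 16595 of the 56262 genes in the tables were abundant enough to be tested. Levels are given as CPM, the share of a library's TMM-scaled counts on the usual CPM scale, with means ± SD over n = 3 libraries, and every p-value is a Benjamini-Hochberg adjusted one from edgeR's quasi-likelihood test over those 16595 genes unless another tool is named. A gene "rose" or "fell" where its adjusted p was under 0.05. The libraries of a group lay close together, with a biological coefficient of variation of 3.74%, so differences of a few percent could pass. Sex-linked RNA differed as well. Xist, made from the silenced X chromosome of female cells, stood at 1.34, 0.734 and 0.533 CPM in the Control libraries and at 693, 695 and 659 CPM in the 5-FU+FMT libraries, and all 10 Y-linked genes tested fell, Ddx3y from 168 ± 4.23 to 100.04 ± 2.28 CPM. The 5-FU+FMT libraries thus held both Xist and Y-linked RNA, while Control held Y-linked RNA and almost no Xist. In 5-FU+Saline Ddx3y was at 38.9 ± 2.58 CPM. Summed over Xist, Ddx3y, Eif2s3y, Uty and Kdm5d, the level was 359 to 373 CPM in Control, 892 to 928 CPM in 5-FU+FMT and 1280 to 1319 CPM in 5-FU+Saline. That sum adds Xist to Y-linked RNA, which moved in opposite directions, so it is no measure of sex composition. Both Ddx3y and the sum lay between the other groups in 5-FU+FMT, as did many levels given below. A difference of treatment and one of sex-linked composition cannot be told apart. Immunoglobulin genes took 3.17% to 3.24% of the counts in Control and 2.13% to 2.22% in 5-FU+FMT, and ribosomal and small RNAs 1.58% to 1.68% and 0.650% to 0.767%.

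RNA of the gate markers was read in each library as a check of the cells. Slamf1, which encodes CD150, was at 9.62, 8.07 and 7.36 CPM in the Control libraries and at 23.5, 23.3 and 26.4 CPM in 5-FU+FMT (2.94-fold, adjusted p = 2.08e-21), so that no Control library reached the level of a 5-FU+FMT library. Cd48, the gene of the negative gate, rose from 30.7 ± 1.27 to 46.7 ± 1.53 CPM (1.52-fold, adjusted p = 6.18e-12). Per kilobase of transcript Cd48 RNA stood above Slamf1 RNA in both groups, at 25.8 against 1.36 RPKM in Control and 39.3 against 3.96 RPKM in 5-FU+FMT. Kit, the stem cell factor receptor, fell from 754 ± 6.41 to 537 ± 6.84 CPM, and Cd34, a sialomucin of progenitors, fell from 559 ± 8.97 to 413 ± 2.85 CPM. Ly6a, the Sca1 gene, was at 97.2 ± 7.27 and 108 ± 6.71 CPM; its libraries overlapped, and its call (adjusted p = 0.00771) was lost in 3 of 18 alternatives, with upper-quartile scaling and without Control replicate 2 or 5-FU+FMT replicate 1 (adjusted p up to 0.161). RNA levels by themselves therefore do not bear out the CD150 and CD48 gate in either group. The gate reads surface protein, which RNA does not measure, so they cannot show whether it held. The cells are called here by their labels.

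Of the 16595 genes tested, 4151 rose in 5-FU+FMT against Control (25.0%) and 3584 fell (21.6%), 46.6% in all. Counts of list members given below are to be read beside these shares. The levels in the Control libraries and those in the 5-FU+FMT libraries kept apart, with no overlap, for 52.7% of genes. Most differences were small, with a median fold of 1.29 among genes that rose and 1.34 among genes that fell. At least 2-fold changes were found for 578 genes that rose (3.48%) and 531 that fell (3.2%). Beyond that size the directions parted: 230 genes rose and 16 fell by at least 4-fold, and 130 rose and 1 fell by at least 8-fold. The gene that fell by at least 8-fold, Srp54b, picked with its values known, was at 1.34, 0.917 and 6.13 CPM in Control and 0.386, 0.421 and 0.144 CPM in 5-FU+FMT, so Control replicate 3 held most of its Control level. The counts of large folds take in genes with no count in a group, whose fitted fold depends on the prior count. With upper-quartile in place of TMM scaling 3315 genes rose and 4559 fell, and the median over all genes went from -0.01 to -0.07 on the log2 scale, so that 42.1% of calls were rises instead of 53.7%.

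**Figure D1:**
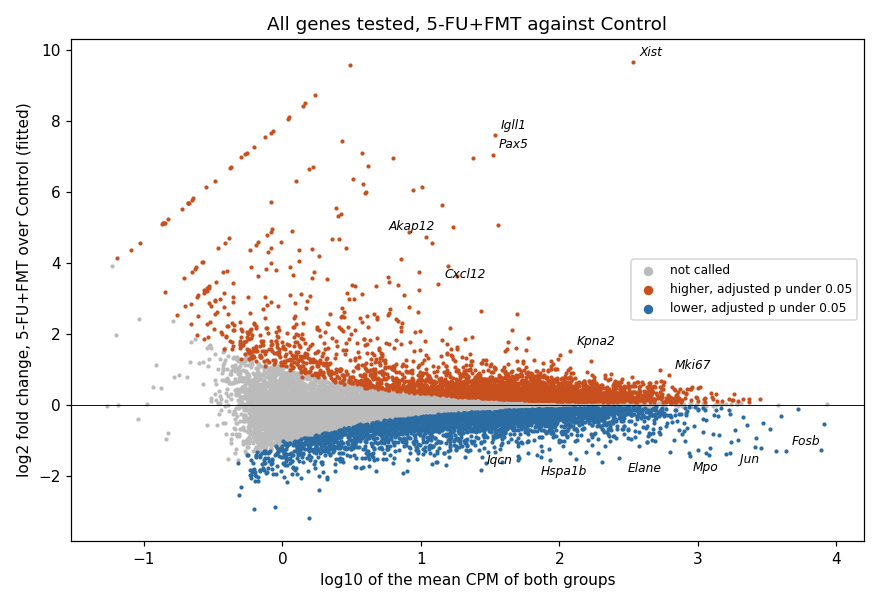
Each point is a gene, placed by the log10 of its mean CPM in Control and 5-FU+FMT and by its fitted log2 fold change, with genes that passed the test coloured by direction. The straight row of points at upper left has no or hardly any Control counts. Large rises reach far above the axis while most falls stay within a few-fold: 230 genes rose and 16 fell by at least 4-fold.

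Large rises were found for genes of varied function. Among protein-coding genes with at least 1 CPM in both groups, Akap12, a scaffold that binds protein kinase A, rose from 0.746, 1.19 and 1.12 CPM in the Control libraries to 31.8, 36 and 31 CPM in the 5-FU+FMT libraries (32-fold). No library of one group reached the range of the other. Chst3, a sulfotransferase of chondroitin chains, rose 23.3-fold, Bcat1, an aminotransferase of branched-chain amino acids, 13.3-fold, Cecr2, a bromodomain protein of chromatin remodelling complexes, 12.3-fold, and Chga, the granule protein chromogranin A, 10.3-fold, each to between 12.6 and 33.6 CPM. Slamf6, a lymphocyte receptor of the SLAM family, rose 9.37-fold, Bok, a BCL2 family member, 6.09-fold and Cplx2, a regulator of vesicle release, 5.83-fold. Gfra2, a receptor for GDNF family ligands, had 0.221 ± 0.242 CPM in Control and 17.3 ± 0.392 in 5-FU+FMT.

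Few falls went beyond 4-fold. Iqcn fell from 41.7, 41.4 and 44.1 to 10.1, 11.5 and 14.3 CPM (3.56-fold), the largest fall among protein-coding genes with a standard symbol, at least 1 CPM in both groups and 10 CPM in a group. Epha1, an ephrin receptor, fell 3.15-fold, Rtn2, a reticulon of the endoplasmic reticulum, 2.87-fold, Lag3, an inhibitory receptor of lymphocytes, 2.79-fold, Clec12a, a lectin of myeloid cells, 2.76-fold, and Lrp1, an endocytic receptor, 2.7-fold. Among the most abundant genes that fell at least 2-fold, Rhob, a small GTPase, went from 1238 ± 29.4 to 486 ± 21.3 CPM and Lars2, a mitochondrial leucyl-tRNA synthetase, from 1409.7 ± 68.6 to 580.3 ± 54.6 CPM. The ribosomal and small RNA share of the counts, given above, fell beside Lars2, and its part in that value was not tested.

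Immediate early genes, whose transcription starts within minutes when a cell is stimulated, were lower in 5-FU+FMT: all 25 on the list fell and none rose, 15 of them by at least 2-fold, with a median log2 fold change of -1.05 against -0.01 over all genes tested. Fosb, a subunit of the AP-1 transcription factor (chromosome 7, 19302696 to 19310051, mm10), was at 6112, 6185 and 6151 CPM in the Control libraries and at 2388, 2489 and 2607 CPM in the 5-FU+FMT libraries. Its fitted fold was 2.47 (log2 fold change -1.30, SE 0.022, adjusted p = 1.59e-59), and the highest 5-FU+FMT library lay far under the lowest Control library. Jun, its AP-1 partner, went from 4004, 4006 and 4018 to 1642, 1700 and 1848 CPM (2.32-fold) and Fos from 3685, 3583 and 3582 to 1530.4, 1538 and 1646 CPM (2.3-fold). For all 3 AP-1 genes 5-FU+FMT replicate 3 was the highest of its group. Egr1, a zinc finger factor induced by growth factors, fell from 2462, 2447 and 2432 to 898, 955 and 992 CPM (2.58-fold, adjusted p = 6.49e-57).

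The other members fell too, and 10 of the 25 by less than 2-fold. Klf6 and Klf4, Kruppel-like factors, fell from 1712 ± 14.4 to 729.8 ± 33 CPM and from 273 ± 0.765 to 106 ± 7.87 CPM, and the orphan nuclear receptor Nr4a3 fell from 16.8 ± 2.75 to 6.54 ± 0.908 CPM. Genes that shut the response down fell with it: Zfp36, which speeds decay of inflammatory mRNAs, fell from 2354 ± 14 to 1137 ± 43.7 CPM (2.07-fold), Dusp1, a phosphatase that turns off MAP kinases, from 1091 ± 23.8 to 533 ± 30.8 CPM (2.05-fold), and the anti-proliferative Btg2 from 519 ± 10.6 to 231 ± 13.9 CPM (2.25-fold). Summed over the list, the level was 30697 to 30861 CPM in Control and 13483 to 14689 CPM in 5-FU+FMT, and 5163 to 5200.1 CPM in 5-FU+Saline. The 5-FU+FMT libraries thus stood between the other groups, as they did for sex-linked RNA, given above. Treatment and sex-linked composition cannot be told apart here either.

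Promoters of these genes are known to hold the cyclic AMP response element (CRE, TGACGTCA) and the CArG box (CC, then 6 bases that are A or T, then GG), the site of serum response factor. Both were searched on both strands in the RefSeq windows of build GRCm38.p6, which run from 250 bases before to 50 after a start site; 21 of the 25 genes had a window. The CRE was found in Btg2 and Dusp1, in 2 of 21 genes against 2.03% of the 27025 genes in the table, and the CArG box in Dusp5, Egr2 and Zfp36, in 3 of 21 genes against 1.81%. The 160 bases before the start site are shown, 5′ to 3′, for a gene with each motif, with the motif in capitals: Dusp1 (chr17:26508473-26508632, minus strand) with the CRE at -143 and Zfp36 (chr7:28379229-28379388, minus strand) with the CArG box at -58, positions being counted from the start site.
Dusp1: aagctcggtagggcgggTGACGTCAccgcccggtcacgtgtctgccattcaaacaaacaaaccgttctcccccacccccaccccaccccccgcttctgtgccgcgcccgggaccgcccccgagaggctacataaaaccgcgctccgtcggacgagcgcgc
Zfp36: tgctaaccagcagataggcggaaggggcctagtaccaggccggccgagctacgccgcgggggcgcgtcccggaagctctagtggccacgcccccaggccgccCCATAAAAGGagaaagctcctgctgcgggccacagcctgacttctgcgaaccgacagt
A match describes letters in the window and not a bound site. Fosb and Jun held neither motif in these windows, and Egr1, Egr3, Ier2 and Myc had no window. Whether either motif had a part in the falls was not tested.

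**Figure D2:**
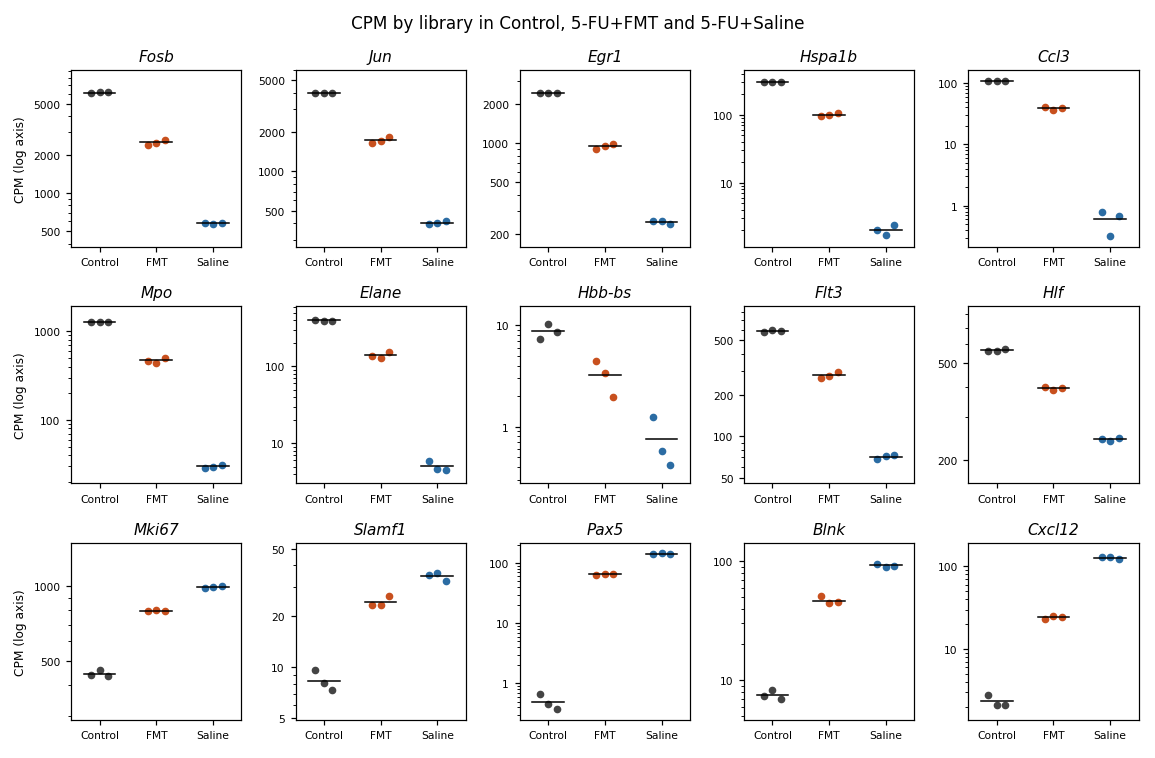
Points are CPM of single libraries in Control, 5-FU+FMT (FMT) and 5-FU+Saline (Saline) on a log axis for 15 genes, and bars are group means. Each 5-FU+FMT mean lies between those of the other 2 groups, as for Fosb at 6149, 2494 and 577 CPM.

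Inducible HSP70 genes fell as well, while several other chaperones were slightly higher. Hspa1b and Hspa1a, the stress-induced HSP70 genes, fell from 301, 308 and 303 to 94.8, 99.4 and 106 CPM (3.04-fold, adjusted p = 1.31e-48) and from 126 ± 0.967 to 43.3 ± 3.31 CPM (2.93-fold). Every Control library lay above every 5-FU+FMT library. Reads that map to both genes of this near-identical pair cannot be assigned to either, so their separate levels are uncertain. Hspb1, a small heat shock protein, fell 2.84-fold. By contrast Hsp90aa1, Hsp90ab1 and the mitochondrial chaperonin gene Hspd1 rose 1.15-, 1.13- and 1.23-fold. On the whole list 5 of 16 genes rose and 9 fell (median -0.26); 3 rose with upper-quartile scaling, without Control replicate 3 or without 5-FU+FMT replicate 1. The heat shock element was searched on both strands as GAA and then 2 bases of any kind, TTC, 2 bases of any kind and GAA. It was in the windows of 4 of 12 genes, Chordc1, Hspd1, Hspe1 and Hsph1, against 0.662% of all genes. The windows of Hspd1 and Hspe1 overlap on opposite strands, and the same stretch of bases is counted for both genes. Those of Hspa1a and Hspa1b did not hold this spelling.

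On the list of the unfolded protein response and the integrated stress response most genes were lower, with 12 of 18 falling, 2 rising and a median of -0.25. Hspa5, the main chaperone of the endoplasmic reticulum, fell from 1652 ± 12.4 to 936 ± 32.2 CPM (1.76-fold, adjusted p = 1.88e-43). Ppp1r15a, which restores translation after stress, fell 1.62-fold and Herpud1, a factor of protein disposal from the reticulum, 1.59-fold. Canx and Pdia3, which fold glycoproteins, rose 1.2- and 1.1-fold.

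Genes of cell division were higher in 5-FU+FMT on both of their lists: 24 of 24 DNA replication genes rose (median 0.61; at least 22 whichever library was left out) and 24 of 24 mitosis genes rose (median 0.89), where 25.0% of all genes did. Mki67, a protein of dividing cells, was at 436, 460.4 and 433 CPM in untreated mice and at 793, 799.95 and 792 CPM in 5-FU+FMT (log2 fold change 0.85, SE 0.026, adjusted p = 6.94e-43). The groups stood well apart, and the spread within each was small beside the gap. Ccnb1, the cyclin that starts mitosis, rose from 61.1, 53.8 and 55.4 to 138, 141 and 136 CPM (2.43-fold). Ube2c, which helps to destroy that cyclin at the end of mitosis, rose 2.27-fold, Ccna2, the S and G2 phase cyclin, 2.04-fold and the kinetochore gene Cenpf 2.02-fold.

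Replication genes rose less than mitosis genes by median. Rrm2, a subunit of ribonucleotide reductase, rose from 63.5 ± 2.4 to 129 ± 5.25 CPM (2.02-fold), and Uhrf1, which carries DNA methylation through replication, from 167 ± 2.29 to 307 ± 6.26 CPM (1.83-fold). Tyms, the thymidylate synthase that 5-FU inhibits, rose from 42.1, 37.6 and 41.2 to 77, 73.4 and 73.2 CPM (1.84-fold, adjusted p = 1.22e-22). Further abundant genes of dividing cells that at least doubled were Kpna2, a nuclear import receptor (from 61.8 ± 5.01 to 177 ± 3.16 CPM), Pclaf, a partner of the replication clamp (from 56 ± 3.37 to 147 ± 4.63 CPM), and the chromatin remodeller Hells (from 61.4 ± 2.28 to 124 ± 7 CPM). Of 20 DNA repair genes 17 rose and none fell (median 0.51), among them Lig4, the ligase of end joining (2.46-fold).

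Brakes on the cell cycle went both ways, 3 of 14 rising and 8 falling (median -0.21). Btg1, which slows proliferation, fell from 376 ± 2.99 to 213 ± 8.84 CPM and Tob1, of the same family, from 51.7 ± 3.91 to 32.2 ± 0.17 CPM. Rbl1, the pocket protein p107, rose 1.55-fold and Foxo1, a transcription factor of quiescence, 1.45-fold. Cdkn1a, the p53 target and CDK inhibitor p21, fell from 93.9, 92.6 and 93 to 76.5, 84.6 and 72.2 CPM (1.2-fold, adjusted p = 1.09e-05), with every 5-FU+FMT library below every Control library. Among 20 p53 targets 4 rose and 9 fell (median -0.10; 2 rose with upper-quartile scaling, with the stricter filter or without Control replicate 3). The death genes Bbc3 and Pmaip1 fell 1.5- and 1.64-fold, while Gtse1, a mitotic regulator of p53, rose 2.02-fold.

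LT-HSC identity genes had no common direction (median -0.06). Of 25 genes 8 rose (32.0%, against 25.0% of all genes), 10 fell (40.0%, against 21.6%) and 7 did not pass. Hlf, a transcription factor of stem cells, fell from 560.2, 562 and 573 to 399, 388 and 396 CPM (1.43-fold, adjusted p = 4.96e-28). Mecom, a factor needed for stem cell upkeep, rose from 117 ± 0.525 to 147 ± 5.47 CPM (1.25-fold). Vwf, carried by platelet-biased stem cells and by megakaryocytes, rose from 56 ± 3.62 to 118 ± 4.28 CPM (2.11-fold), and Ctnnal1, a stem cell reporter gene, 1.67-fold. Procr, the surface receptor EPCR, was at 74.4 ± 3.19 and 67.7 ± 0.212 CPM, a call (adjusted p = 0.0391) that was lost in 9 of 18 alternatives, among them those without Control replicate 1 or 2, 5-FU+Saline replicate 1 or any 5-FU+FMT replicate (adjusted p up to 0.296).

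On the list of multipotent and lymphoid-primed progenitors 4 of 15 genes rose and 9 fell (median -0.53). Flt3, a cytokine receptor of multipotent progenitors that LT-HSCs lack, was at 574, 591 and 588 CPM in the untreated libraries and at 267, 275 and 296 CPM in 5-FU+FMT (2.09-fold lower, adjusted p = 2.70e-44). Control libraries thus held the higher level of this progenitor gene, which was at 70.9 ± 2.47 CPM in 5-FU+Saline. Satb1, a chromatin organiser of lymphoid priming, fell from 147 ± 1.85 to 78.3 ± 2.51 CPM, and Wfdc17, of a family of secreted protease inhibitors, from 23.1 ± 1.18 to 9.49 ± 0.471 CPM. Rag1, a subunit of the recombinase that assembles antigen receptor genes, rose from 2.39, 1.83 and 1.65 to 31.8, 30.4 and 25.3 CPM (15.1-fold), and Il7r, the interleukin-7 receptor, rose 1.37-fold; Cd48, given above, also rose.

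Erythroid genes were lower: 20 of 23 tested fell, 16 of them by at least 2-fold, and 1 rose (median -1.19), where 21.6% of all genes fell. Slc4a1, the anion exchanger of red cells, was at 19.9, 20.5 and 19 CPM in Control and 6.17, 6.04 and 7.01 CPM in 5-FU+FMT (3.09-fold, adjusted p = 1.88e-16). Its libraries did not overlap between the groups, and it was lower still in 5-FU+Saline, at 0.0857 ± 0.0969 CPM. Fewer erythroid cells and less of this RNA per cell cannot be told apart in such bulk libraries, which holds for every cell type below. Hbb-bs, an adult beta globin, fell from 8.76 ± 1.45 to 3.25 ± 1.25 CPM, whereas its near-identical neighbour Hbb-bt rose from 8.19 ± 1.1 to 22.7 ± 2.34 CPM, so both calls are uncertain singly. Hba-a1, an alpha globin picked with its values known, fell from 21.1 ± 3.86 to 8.4 ± 1.44 CPM. Icam4 was at 0 in both groups. Summed, the erythroid list was at 1855 to 1899 CPM in Control and 1139 to 1192 CPM in 5-FU+FMT.

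GATA1 drives erythroid genes through sites of the core GATA. The spelling AGATAA, searched on both strands, was in the windows of 8 of the 18 erythroid genes with a window, Alas2, Epb42, Epor, Hbb-bs, Icam4, Kel, Pklr and Rhd, against 12.7% of all genes. Of these, Alas2 did not pass the test and Icam4, given above, had no count. Whether the motif had a part in the falls was not tested. Kel, which carries the Kell blood group, and Pklr, the red cell pyruvate kinase, picked with their values known, fell from 29.8 ± 3.16 to 12.4 ± 1.3 CPM and from 39.6 ± 1.66 to 17 ± 1.83 CPM (2.42- and 2.33-fold). The 160 bases before their starts are shown as examples, with AGATAA in capitals, at -56 in Kel (chr6:41704326-41704485, minus strand) and at -35 in Pklr (chr3:89135982-89136141, plus strand).
Kel: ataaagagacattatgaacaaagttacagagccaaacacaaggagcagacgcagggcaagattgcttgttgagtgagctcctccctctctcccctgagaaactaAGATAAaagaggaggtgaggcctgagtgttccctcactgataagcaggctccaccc
Pklr: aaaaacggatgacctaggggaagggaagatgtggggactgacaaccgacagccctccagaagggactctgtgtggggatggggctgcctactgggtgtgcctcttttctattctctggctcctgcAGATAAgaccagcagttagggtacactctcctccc
Gata1 itself, picked likewise, was at 24.3 ± 2.87 and 21.8 ± 0.628 CPM and did not pass the test (adjusted p = 0.188).

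Heme synthesis genes fell beside the erythroid list, 8 of 12 falling and 1 rising (median -0.37), the exception Tmem14c losing its call in 6 of 18 alternatives (upper-quartile scaling, the stricter filter, DESeq2, and without Control replicate 1, Control replicate 2 or 5-FU+FMT replicate 1). Alas1, the housekeeping enzyme of the committed step, fell from 87.1 ± 1.45 to 54.8 ± 3.58 CPM (1.59-fold), Ppox from 106 ± 4.66 to 67.6 ± 3.84 CPM and the transporter Abcb10 from 51.6 ± 2.73 to 34.4 ± 0.577 CPM. Of 22 iron handling genes 6 rose (27.3%, against 25.0% of all genes) and 7 fell (31.8%, against 21.6%). Hmox1, which breaks heme down, rose from 4.1, 3.94 and 3.47 to 7.07, 6.39 and 7.51 CPM (1.84-fold, adjusted p = 6.46e-06), and Pcbp1, an iron chaperone, 1.26-fold. Slc40a1, the iron exporter ferroportin, fell from 15.1, 16.8 and 13 to 8.68, 11.2 and 9.24 CPM (1.53-fold), Trf, the iron carrier of plasma, 1.55-fold and Tfrc, its receptor, 1.22-fold.

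Granule genes of granulocyte precursors fell, while 4 genes of later neutrophils, Ltf, Ngp, Mmp9 and S100a9, rose from low levels. Mpo, the peroxidase of primary granules (chromosome 11, 87793581 to 87804413), was at 1277, 1276 and 1277 CPM in Control libraries and at 464, 444 and 499 CPM in 5-FU+FMT (log2 fold change -1.44, SE 0.028, adjusted p = 8.45e-56). Elane, the granule elastase, fell from 403, 394 and 392 to 138, 129 and 152 CPM (2.84-fold) and Ctsg, cathepsin G, from 171 ± 4.69 to 66.1 ± 6.4 CPM (2.59-fold). For these 3 genes the groups were far apart, and 5-FU+Saline lay at 29.9 ± 1.14, 5.02 ± 0.746 and 6.96 ± 0.782 CPM. S100a9, a calcium-binding protein of mature neutrophils, rose from 2.84 ± 0.616 to 5.7 ± 1.15 CPM (1.99-fold). Lcn2, Camp, S100a8 and Cxcr2 did not pass the test, and Ly6g was at 0 in both groups. Of 16 genes tested 4 rose and 8 fell (median -0.14), and the sum was 2659.9 to 2704 CPM in Control and 1104 to 1230.2 CPM in 5-FU+FMT.

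Other myeloid lists also held members of both directions. Ly6c2, a surface antigen of monocytes, fell from 85.5 ± 6.8 to 33 ± 1.13 CPM (2.58-fold) and Csf1r, the receptor of macrophage colony-stimulating factor, from 15.3 ± 2.81 to 7.8 ± 0.899 CPM, whereas Ccr2, the receptor that draws monocytes out of marrow, rose 1.6-fold and Vcam1, an adhesion molecule of marrow macrophages and stroma, 1.8-fold. Monocyte and macrophage genes gave 9 of 20 rising and 4 falling, yet their sum was lower in 5-FU+FMT, at 585 to 614 CPM in Control and 392 to 412 CPM in 5-FU+FMT. Basophil proteases fell, Prss34 from 43.7 ± 3.47 to 17.2 ± 1.31 CPM (2.53-fold) and Mcpt8 from 15.3 ± 2.3 to 6.18 ± 0.118 CPM, as did the eosinophil peroxidase gene Epx, from 9.58 ± 1.05 to 3.09 ± 0.201 CPM. Tpsb2, Mcpt4 and Cma1, proteases of connective tissue mast cells, rose. Tpsb2, a tryptase, went from 2.31, 0.917 and 1.71 to 10.7, 10.5 and 9.46 CPM (6.03-fold, adjusted p = 1.27e-17). Mcpt4 went from 0.563 ± 0.219 to 6.12 ± 1.16 CPM and Cma1 from 1.87 ± 0.32 to 6.74 ± 0.194 CPM. On that list 3 of 15 rose and 8 fell (median -0.48). The 8 that fell took in Cpa3, another protease of mast cells, and Ms4a2 and Hdc, which mast cells also carry. Among 16 megakaryocyte genes 2 rose, Vwf and the platelet adhesion receptor gene Selp (from 17.2 ± 0.85 to 73.8 ± 5.24 CPM, 4.26-fold), and 6 fell, including the integrin gene Itgb3 (1.59-fold) and the platelet chemokine gene Ppbp (2.07-fold). Gp1bb was at 0 in both groups. Dendritic cell genes gave 2 of 10 rising and 4 falling.

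B lineage genes rose in 5-FU+FMT, all 17 on the list and 16 of them by at least 2-fold (median 2.97). Their summed level was 102 to 104 CPM in Control and 589.8 to 645 CPM in 5-FU+FMT; it was 1215 to 1234 CPM in 5-FU+Saline. Pax5, the factor that commits cells to the B lineage (chromosome 4, 44524757 to 44710487), was at 0.671, 0.458 and 0.373 CPM in the Control group and at 64.4, 65.2 and 66.4 CPM in 5-FU+FMT (132-fold, adjusted p = 9.72e-57). Ebf1, which acts before Pax5, went from 0.597, 0.825 and 0.373 to 27.3, 33.3 and 23.3 CPM (49.4-fold). Control held either factor at under 1 CPM in every library. Members this scarce in Control passed the filter through the 5-FU groups, so a fall could hardly have been found for them. The surrogate light chain genes of the pre-B cell receptor rose: Igll1 from 0.298, 0.0917 and 0.533 to 73.4, 71.3 and 59.7 CPM (192-fold), Vpreb1 from 0.431 ± 0.328 to 47 ± 3.51 CPM, and their relative Vpreb3 from 0.725 ± 0.349 to 20.9 ± 1.05 CPM. Vpreb2 had 2 counts over the Control libraries and 325 over the 5-FU+FMT libraries, a ratio of 160.4 after scaling (95% exact counting interval 44.05 to 1330.1, counting error only). Blnk, the adaptor that relays the receptor's signal, rose from 7.57 ± 0.699 to 46.7 ± 3.54 CPM (6.25-fold). Lineage-positive cells should be outside the gate; which markers the lineage stain held is not given in the sources used here.

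Genes of antibody-secreting cells went the other way, 9 of 12 falling and none rising (median -0.51). Ighm, the heavy chain of IgM, fell from 4193, 4122 and 4040.5 to 2524, 2486 and 2634 CPM (1.62-fold), Derl3, a protein of the reticulum's disposal route, from 38.7 ± 2.72 to 23.2 ± 1.02 CPM, and Tnfrsf17, the receptor BCMA, from 5.46 ± 0.889 to 2.97 ± 0.558 CPM. Their summed level was 16970 to 17380 CPM in Control and 11305 to 11771 CPM in 5-FU+FMT. Of T and NK cell genes 7 of 14 rose and 2 fell, with sums of 97.8 to 107 CPM in Control and 104 to 109 CPM in 5-FU+FMT that overlapped (2 rose and 1 fell among the genes left by the stricter filter); Il2rb, a subunit of the receptors for interleukin-2 and interleukin-15, rose from 3.7 ± 0.493 to 12.9 ± 1.6 CPM, and the granule gene Nkg7 fell from 53.8 ± 5.52 to 39 ± 3.31 CPM.

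Stromal and endothelial genes rose from very low levels. Cxcl12, the chemokine with which marrow stroma retains stem cells, went from 2.76, 2.11 and 2.08 CPM in Control to 22.9, 25.3 and 24.3 CPM in 5-FU+FMT (10.5-fold, adjusted p = 4.91e-38), with no overlap. Igfbp5, which binds insulin-like growth factors, went from 0.224, 0.0917 and 0.0533 to 8.43, 7.79 and 7.01 CPM (62.5-fold), the matrix gene Sparc from 0.954 ± 0.691 to 8.58 ± 0.6 CPM, the bone phosphatase gene Alpl from 1.53 ± 0.458 to 13.6 ± 0.884 CPM and Lpl, lipoprotein lipase, from 1.6 ± 0.361 to 10.3 ± 1.26 CPM. Collagen genes chosen after their values were seen, Col6a1 and Col3a1, had no count in Control against 152 and 98 counts over the 5-FU+FMT libraries. With 3 counts over the Control libraries as the floor, Col6a1 was at least 50.01-fold higher and Col3a1 at least 32.2-fold higher. Of the list 15 of 18 rose and 2 fell (median 3.36), and 9 rose among the genes left by the stricter filter. Members with no or hardly any Control counts, such as Col6a1 and Col3a1, passed the filter through the 5-FU groups. A fall could hardly have been found for them, so the count and the median do not test a direction. The members that fell, Runx2 (from 259 ± 3.82 to 183 ± 5.32 CPM) and Pdgfrb (from 57.1 ± 0.973 to 27.6 ± 0.972 CPM), hold most of the list's RNA, so the sum was lower in 5-FU+FMT, at 326 to 334 CPM in Control and 288 to 304 CPM in 5-FU+FMT. On the endothelial list 9 of 14 rose and 2 fell (median 0.83); Stab1, a scavenger receptor of sinusoids, rose from 1.36 ± 0.553 to 7.88 ± 1.05 CPM, Sox18 from 1.27 ± 0.545 to 6.3 ± 1.06 CPM and the VEGF receptor gene Kdr from 2.38 ± 0.239 to 6.47 ± 0.78 CPM, while Pecam1, which stem cells also carry, fell 1.14-fold. Lyve1 was at 0 in both groups.

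**Figure D3:**
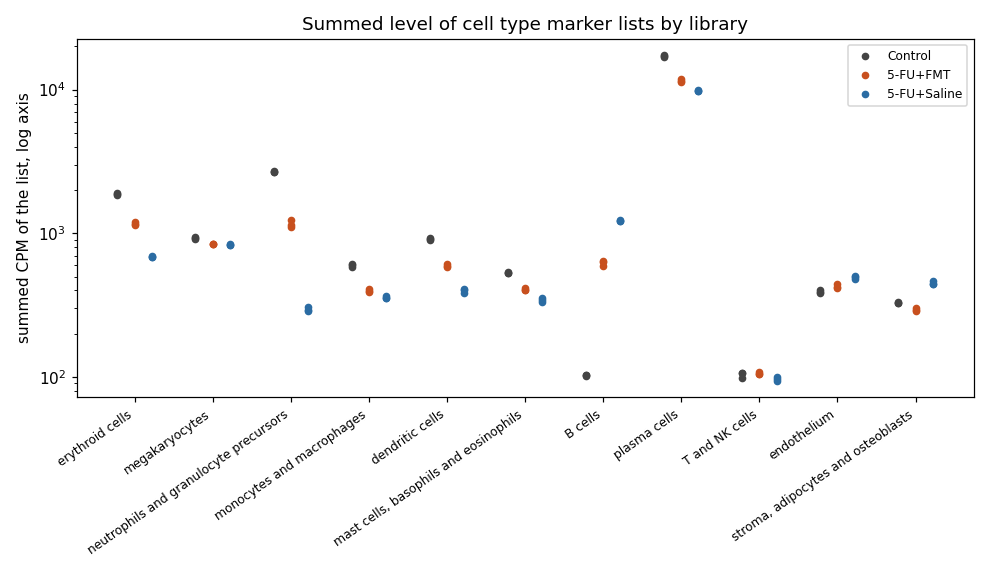
Points are summed CPM of each cell type marker list in single libraries, on a log axis, for the 3 groups. Neutrophil and erythroid sums were lower in 5-FU+FMT than in Control and the B cell sum was higher, going from 102 to 104 CPM in Control to 589.8 to 645 CPM in 5-FU+FMT.

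On the inflammatory and interferon lists more genes fell than rose. Ccl3 and Ccl4, chemokines that draw myeloid cells and lymphocytes, fell from 110.2, 107 and 107 to 40.9, 35.7 and 39.7 CPM (2.79-fold) and from 100.01, 100.04 and 101 to 38.4, 32.2 and 41.5 CPM (2.69-fold). In 5-FU+Saline they were at 0.594 ± 0.247 and 2.44 ± 0.571 CPM, so 5-FU+FMT lay between the other groups. Nfkbiz, a nuclear regulator of NF-kB, fell from 582 ± 6.01 to 326 ± 11.6 CPM, while Nfkb1, the p105 subunit, rose 1.13-fold. The NF-kB list had 4 of 22 rising and 11 falling (median -0.31); 2 rose with upper-quartile scaling or without 5-FU+FMT replicate 1 or replicate 3, and 1 without Control replicate 3. Of 24 interferon response genes 5 rose and 12 fell (median -0.21), with Irf1, a regulator of the response, 1.44-fold and Ifi44 1.33-fold lower and Ifit2, a sensor of foreign RNA, 1.42-fold higher.

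MHC class II genes fell, 8 of 11 and none rose (median -0.41; 1 rose without Control replicate 1 or without 5-FU+FMT replicate 3). H2-Ob, which tempers peptide loading, fell from 85.5 ± 4.39 to 51.4 ± 4.18 CPM (1.66-fold), H2-DMb1, which promotes it, from 26.4 ± 1.25 to 17.9 ± 1.07 CPM, and Ciita, the master activator of the class, from 7.42 ± 0.639 to 5.26 ± 0.558 CPM. Class I genes gave 5 of 16 rising and 8 falling: H2-Q7 fell from 389 ± 10.1 to 237 ± 13.8 CPM and H2-Q4 from 419 ± 3.31 to 288 ± 5.28 CPM, near-identical genes whose separate levels are uncertain, H2-T23 fell 1.28-fold, and Psme2, an activator of the proteasome, rose 1.22-fold. Only 1 class I gene rose with upper-quartile scaling, and 3 with the stricter filter, in DESeq2, without Control replicate 2 or without 5-FU+FMT replicate 1.

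Nuclear genes of oxidative phosphorylation, glycolysis and fatty acid oxidation were modestly higher. Of 23 nuclear genes of oxidative phosphorylation 21 rose and none fell (median 0.39), among them Atp5o, of ATP synthase, from 43.2, 40.6 and 39.3 to 66.7, 64.5 and 64.2 CPM (1.59-fold), Cox5a, of cytochrome c oxidase (1.43-fold) and Cyc1, cytochrome c1 (1.43-fold). Mitochondrially encoded mRNAs showed no such shift (median 0.01), with 4 of 12 rising (33.3%, against 25.0% of all genes) and 3 falling (25.0%, against 21.6%). With upper-quartile scaling 5 fell, and without 5-FU+FMT replicate 2 only 1 fell. Of this class mt-Nd6 rose 1.24-fold and mt-Co1 fell 1.08-fold. Glycolysis genes gave 12 of 17 rising and 1 falling (median 0.21; 2 fell with upper-quartile scaling or the stricter filter): Pgk1 rose from 209.9 ± 2.2 to 329.7 ± 12.1 CPM, Ldha, lactate dehydrogenase, from 392 ± 5.29 to 607 ± 9.2 CPM and Eno1 from 278 ± 3.44 to 398 ± 9.52 CPM, while the glucose transporter gene Slc2a3 fell from 279 ± 5.27 to 204 ± 10.2 CPM. Of 16 fatty acid oxidation genes 12 rose, such as Hadhb (1.41-fold), Fabp5 (1.55-fold) and Cd36, which takes up fatty acids (from 2.52 ± 0.366 to 5.55 ± 1 CPM), and 1 fell, Acadm, whose call was lost in 3 of 18 alternatives, among them those without Control replicate 1 and without 5-FU+FMT replicate 3 (adjusted p up to 0.133). Of 19 cholesterol genes 6 fell (31.6%, against 21.6% of all genes), 2 rose and 11 did not pass (median -0.18; 11 fell and 1 rose with upper-quartile scaling), with Insig1, which holds back cholesterol synthesis, 1.67-fold lower.

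Growth genes were mostly higher. Of 22 ribosome biogenesis and MYC target genes 19 rose and 2 fell (median 0.28). Mycn rose from 49.8 ± 1.82 to 86.9 ± 2.19 CPM (1.74-fold), Cad, which starts pyrimidine synthesis, 1.42-fold and the spermidine synthase gene Srm 1.43-fold, while Myc itself fell from 184 ± 7.45 to 163 ± 8.35 CPM (1.12-fold). Of 24 cytosolic ribosomal protein genes 10 rose, by at most 1.28-fold (Rpl27), and 3 fell, by at most 1.07-fold (Rps14); 6 rose and 7 fell with upper-quartile scaling, and 1 fell without a filter or without 5-FU+FMT replicate 2, so no direction is given for them. Antioxidant genes gave 6 of 19 rising (31.6%, against 25.0% of all genes) and 5 falling (26.3%, against 21.6%), near the shares of all genes. Among them the thioredoxin gene Txn1 was 1.57-fold and the peroxiredoxin gene Prdx1 1.58-fold higher. Aifm2 was 1.37-fold and Acsl4 1.15-fold lower, the call of Acsl4 being lost in 3 of 18 alternatives. The largest fall on the list was a log2 fold change of -1.92. On that list 3 rose with upper-quartile scaling, and 3 fell without a filter, without Control replicate 3 or without 5-FU+FMT replicate 3. Autophagy and lysosome genes fell more often than they rose, 10 against 3 of 20 (median -0.14), with Ulk1, the kinase that starts autophagy, 1.61-fold, the LC3 gene Map1lc3a 1.57-fold and the cargo receptor gene Sqstm1 1.49-fold lower.

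Signalling and survival genes changed member by member. Of 17 apoptosis regulators 7 rose and 5 fell: the protective Bcl2l1 rose from 20.2, 20.7 and 17.4 to 37.1, 36.9 and 36.9 CPM (1.92-fold) and the death gene Bak1 1.49-fold, while Bcl2l11, the death gene BIM, fell from 111 ± 1.19 to 64.3 ± 4.19 CPM (1.73-fold); 4 rose with upper-quartile scaling. Of 19 TGF-beta and BMP genes 7 rose (36.8%, against 25.0% of all genes) and 6 fell (31.6%, against 21.6%). The ligand Tgfb1 rose from 159 ± 11.8 to 268 ± 8.18 CPM and the co-receptor Tgfbr3 from 52.1 ± 2.29 to 122 ± 1.31 CPM (2.35-fold), the signalling receptor Tgfbr2 fell 1.28-fold, and the feedback brakes Smad7 and Skil fell from 175 ± 8.16 to 86 ± 4.28 CPM and from 214 ± 9.51 to 108 ± 2.91 CPM. Among 22 JAK-STAT and cytokine receptor genes 4 rose and 12 fell (median -0.20): Socs2, a brake on growth hormone signalling, rose from 19.7, 18.6 and 19.9 to 72.4, 62.6 and 61.7 CPM (3.37-fold) and Cish 1.35-fold, while Il1r1, the interleukin-1 receptor, fell from 109 ± 4.65 to 63.4 ± 4.01 CPM.

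Of 19 adhesion and homing genes 9 rose and 3 fell (5 fell with upper-quartile scaling); the integrin gene Itgb2 rose from 42.4 ± 3.74 to 76.4 ± 0.586 CPM, and Robo4, which holds stem cells in their niche, fell from 75.7 ± 0.655 to 46.1 ± 2.44 CPM. DNA methylation and Polycomb genes gave 6 of 18 rising (33.3%, against 25.0% of all genes) and 7 falling (38.9%, against 21.6%). The maintenance methyltransferase gene Dnmt1 rose from 361 ± 2 to 547 ± 11.8 CPM, Dnmt3b 1.52-fold and Ezh2, the methyltransferase of Polycomb complex 2, 1.5-fold, while the demethylase gene Kdm6b fell from 459.5 ± 22.2 to 245 ± 7.73 CPM, Cbx7 1.66-fold and Tet2 1.52-fold. Imprinted growth genes split 1 against 4 of 11: Grb10, an adaptor that limits insulin signalling, rose from 56.2 ± 2.81 to 124 ± 3.79 CPM, and Meg3, a noncoding RNA, fell from 75.2, 79.6 and 73.4 to 23, 27.7 and 29.97 CPM (2.83-fold), with 0.995 ± 0.216 CPM in 5-FU+Saline.

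**Figure D4:**
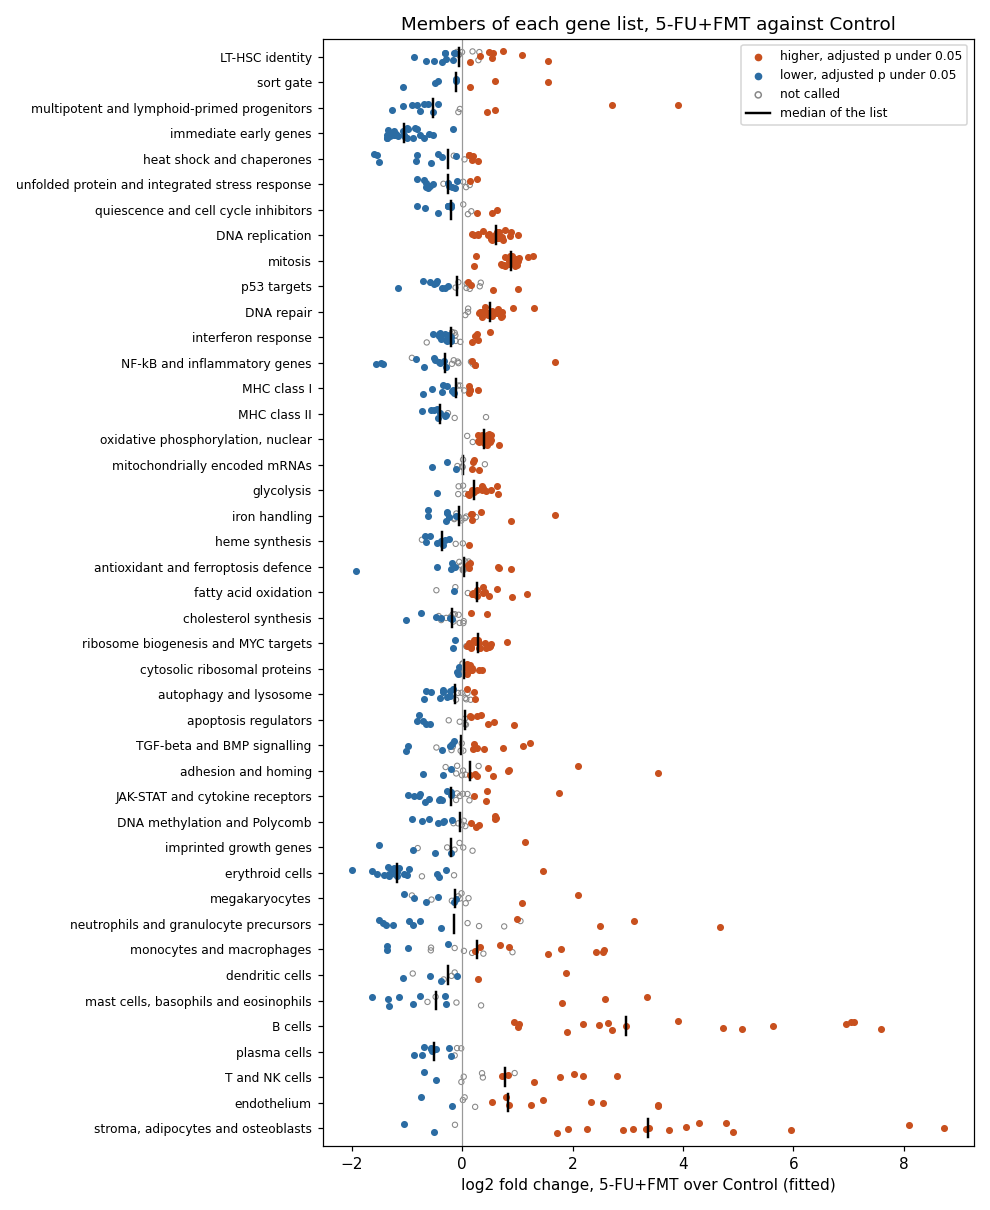
Each point is a gene of a list, placed by its fitted log2 fold change in 5-FU+FMT over Control; filled points passed the test and bars are list medians. Immediate early and erythroid genes lie to the left (medians -1.05 and -1.19), division genes to the right (0.61 and 0.89), and B cell and stromal genes far to the right (2.97 and 3.36). B cell and stromal members with hardly any Control counts passed the filter through the 5-FU groups and could hardly have fallen.

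A small number of genes lay outside both other groups in 5-FU+FMT, passing the test in the same direction against Control and against 5-FU+Saline, comparisons that share the 5-FU+FMT libraries. There were 44 above both (0.265%) and 61 below both (0.368%). Immunoglobulin genes made up 25 of the 44 and 31 of the 61, which is 11.6% and 14.4% of the 215 immunoglobulin genes tested, against 0.116% and 0.183% of the other 16380 genes. Of the others above both, Tpsb2 was the 1 gene that lay at least 2-fold from either group: its 5-FU+FMT libraries, given above, lay over Control and over the 5-FU+Saline libraries at 4.1, 5.66 and 4.65 CPM (2.12-fold, adjusted p = 4.93e-07). The next were Diras2, Hist1h2bj, Mcpt4, Gm9855 and Cma1, of which Diras2, Hist1h2bj and Gm9855 were picked with their values known. The mast cell proteases Mcpt4 and Cma1 were at means of 0.563, 3.5 and 6.12 CPM and 1.87, 4.37 and 6.74 CPM in Control, 5-FU+Saline and 5-FU+FMT. Tgfbi, a matrix protein induced by TGF-beta, was at 44.5, 48.8 and 46 CPM in Control and 82.3, 78.7 and 77.7 CPM in 5-FU+FMT, with 5-FU+Saline at 65.7, 68.3 and 69.7 CPM between them. Adgrl4, an adhesion receptor, was at means of 579, 544 and 644 CPM, and Tmem173, the STING adaptor of cytosolic DNA sensing, at 61.8, 66.7 and 74.3 CPM. Zfp748, Zfp260, Stard9, Gstz1, Tmem106b and Fgfr1op2 were above both as well, and lost the call against Control in 1, 3, 6, 7, 9 and 5 of 18 alternatives; Zfp748 lost it without Control replicate 3, and each of the others without at least 2 of the single Control or 5-FU+FMT libraries.

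Below both groups were Cdkn1a, at means of 93.2, 93.5 and 77.8 CPM in Control, 5-FU+Saline and 5-FU+FMT, and the MHC class II genes H2-Eb1 and H2-Ab1, at 29.6, 32.2 and 22.2 CPM and 70.9, 66 and 57 CPM. H2-Eb1 had 30.5, 30.2 and 28.2 CPM in Control and 24.2, 20.3 and 22.2 CPM in 5-FU+FMT, and 5-FU+Saline was at 32.7, 34.5 and 29.3 CPM, so 5-FU+FMT overlapped neither group. Slc40a1, the iron exporter, was at 15, 12.2 and 9.7 CPM; its 5-FU+Saline libraries were at 12, 13 and 11.6 CPM (1.26-fold, adjusted p = 0.0319). Cpeb2, which binds mRNA tails, was at 41, 31.4 and 27.2 CPM, Sdf2l1, a protein of the endoplasmic reticulum, at 50.4, 51.6 and 43.4 CPM and the ribosomal protein gene Rps29 at 383, 384 and 348 CPM. Chd7, Slc20a1 and Pigm were below both as well and lost the call against Control in 2, 2 and 5 of 18 alternatives, Chd7 without Control replicate 3 or 5-FU+FMT replicate 3, Slc20a1 without a filter or without 5-FU+FMT replicate 2, and Pigm without a filter or without any 1 of Control replicates 2 and 3 and 5-FU+FMT replicates 1 and 3. Scarcer genes picked with their values known, Tg, Hic1 and Rps12-ps24, lay at least 2-fold below both groups at 0.294 to 1.34 CPM in 5-FU+FMT. Srp54b was called below both too, but its 5-FU+Saline libraries, at 0.595, 6.55 and 0.361 CPM, overlapped those of 5-FU+FMT.

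**Figure D5:**
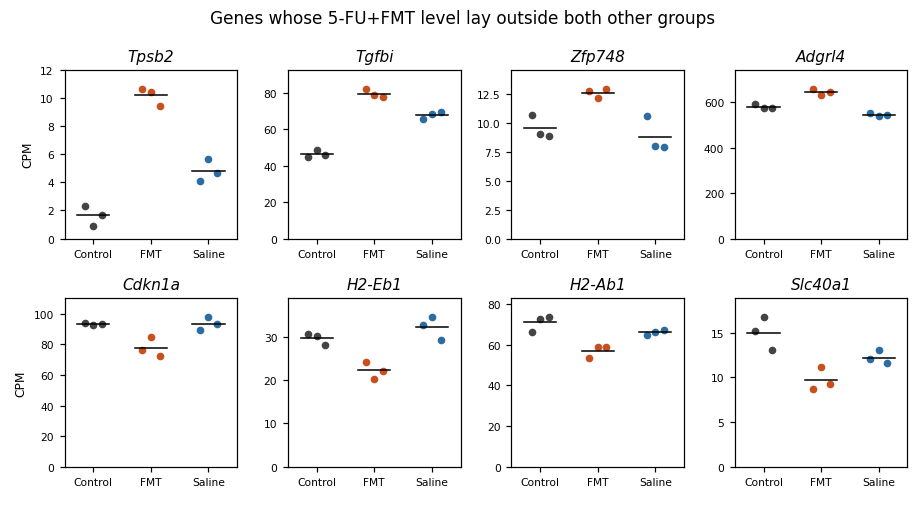
Points are CPM of single libraries and bars group means, on axes from 0, for 4 genes above and 4 below both other groups in 5-FU+FMT. Tpsb2 is the widest case, at means of 1.65, 4.8 and 10.2 CPM in Control, 5-FU+Saline and 5-FU+FMT, and the other 7 genes lie closer to the other groups in fold.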

How the data were processed

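RNA counts of cells sorted as LT-HSCs were taken for 3 Control and 3 5-FU+FMT libraries, with 3 5-FU+Saline libraries in the same fit. What the authors deposited is a table of raw read counts for each library. The submitters' processing notes name Trim Galore 0.6.5, HISAT2 2.2.1, SAMtools, featureCounts 2.0.1 and the build mm10. Per the file headers, read pairs were counted over exons and summed by gene with GENCODE vM25, with no strand option and no option for multiply mapped reads, so overlapping genes on opposite strands (Xist and its antisense gene) and near-identical genes (globins, Hspa1a and Hspa1b, immunoglobulin segments, ribosomal proteins) are uncertain singly. Symbols were given to 55141 and biotypes to 55227 of 56262 genes by the reference tables, whose GENCODE release differs; coordinates are those of the count tables.

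Genes were filtered with filterByExpr, scaled by TMM and fitted over all 9 libraries by the quasi-likelihood F test of edgeR 4.0.16 (with R 4.3.3 and limma 3.58.1) with group means only. Folds are taken from that model, RPKM is CPM per kilobase of the counted exons, and calls needed an adjusted p (Benjamini-Hochberg) under 0.05. In simulated data with 50 genes at each fold, the fit recovered 56% of genes changed 1.25-fold, 58% at 1.5-fold, 86% at 2-fold and 98% at 4-fold among 16112 genes, with 7 false calls. Libraries of a group differed beyond sampling noise (chi-square over its degrees of freedom, 2.13 to 2.54 between pairs), so no library was counted as a copy.

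The comparison and the 44 gene lists were chosen with earlier results of these data known. Lists are described by counts and medians and were not tested; 732 of their 759 genes passed the filter. Named genes are, per direction, the 15 called protein-coding genes with the largest fold (at least 1 CPM in both groups and 10 CPM in a group, no overlap between libraries, standard symbol), the 6 such genes under 1 CPM in the lower group with the highest level in the other (none qualified among falls), the 10 most abundant that changed at least 2-fold, up to 3 members per list with at least 5 CPM, the 10 farthest beyond both other groups, and fixed stem cell, gate and sex-linked genes; this gave 259 genes, of which those that the text uses are printed; some are not reported here. Alternatives were RLE and upper-quartile scaling, removal of immunoglobulin, ribosomal, small RNA and sex chromosome genes, no filter, a stricter filter (5 CPM in 3 libraries), DESeq2 1.42.0, limma-voom, the 6 libraries alone, a replicate block, and leaving out each of the 9 libraries. Genes named outside the rule, such as list members at 0, were picked with their values known. Promoter windows are from RefSeq. Figures were drawn with matplotlib 3.10.9.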

Additional observations from a re-analysis of the deposited data

How the results depend on the processing

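Counts of genes that rose or fell in 5-FU+FMT stayed within 1.5 times of 4151 and 3584 in all 18 alternatives, as did the counts at or beyond 2-fold except under the stricter filter, where 238 genes rose and 220 fell by at least 2-fold instead of 578 and 531; fewer genes were tested there, 11691 instead of 16595. Genes above and below both other groups numbered 25 and 28, instead of 44 and 61, once immunoglobulin, ribosomal, small RNA and sex chromosome genes were removed. Leaving out each library in turn gave 3800 to 4154 genes that rose, 3112 to 3571 that fell, 543 to 590 and 480 to 562 at or beyond 2-fold, and 37 to 49 above and 46 to 58 below both groups. Replicate numbers did not pair the libraries: deviations from the group means of same-numbered Control and 5-FU+FMT libraries correlated at 0.0043, 0.019 and -0.016, and with the replicate block 4157 genes rose and 3560 fell, 567 and 513 of them at least 2-fold. Of the 259 named genes 231 kept direction and call in every alternative and 28 lost the call in at least 1. Depth, 11098031 counts in the shallowest library, limits genes near 1 CPM, and no marker at 0 counts shows that a cell type was absent.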

Other observations

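Classes of RNA differed in direction. Their counts are to be read beside all genes tested, of which 25.0% rose and 21.6% fell. Of 659 antisense genes tested 16 rose and 123 fell in 5-FU+FMT against Control (median log2 fold change -0.33), and of 385 lincRNA genes 38 rose and 64 fell (median -0.17), while 3884 of 13201 protein-coding genes rose and 2985 fell (median 0.02). Among antisense and lincRNA genes the share that fell was below that of all genes, and rises were much scarcer than among all genes. Without a strand option in the counting, antisense reads and those of the overlapping gene cannot be told apart. Of 529 genes on the X chromosome 140 rose and 94 fell (median 0.04). The shares among X-linked genes were near those of all genes. Immunoglobulin V segments went both ways, 55 of 187 rising and 94 falling, and 8 of 11 constant region genes fell.

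Genes that fell at least 4-fold were few and scarce: of 16, 8 were protein-coding genes with a standard symbol.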
